A study of Mus musculus with 10 samples.

Results

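The cadherin superfamily genes considered here were the 109 mouse protein-coding genes whose symbols begin with Cdh and a digit, Cdhr, Pcdh, Celsr, Dsc or Dsg, out of 21774 protein-coding genes on the autosomes, X and Y. They were looked up in the lists of transcription start sites (TSSs) that the study grouped as enriched for ARID2, the subunit that marks the PBAF form of the SWI/SNF chromatin remodeler. Of the 109, 57 belong to the clustered protocadherins (14 alpha, 22 beta and 21 gamma), which lie in tandem in 1 locus, and 52 lie outside it. The clustered genes are reported apart.

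ARID2 was mapped by CUT&RUN, which sequences the chromatin fragments released by a nuclease tethered to an antibody, in spermatogenic cells of wild-type CD1 mice. Spermatogenesis was synchronized by giving WIN 18,446, an inhibitor of retinoic acid synthesis, from postnatal day 1 to 10 and retinoic acid on day 11. The retinoic acid dose preceded the collection of cells by 17 days for the P28 samples and by 17.5 days for the P28.5 samples. Each age had 2 ARID2 libraries, 2 libraries for BRG1, the ATPase of the complex, and 1 control without primary antibody. All groups thus shared strain and treatment and differed in age and antibody. The cells came from digested and filtered tubules, a mixture enriched for late prophase and metaphase spermatocytes, not a sorted population. Nothing in the labels says that the 2 ARID2 libraries of an age came from separate animals.

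At each age the deposited list names the TSSs of cluster-1 (Cl-1), the k-means cluster with ARID2 signal, from the average of the ARID2 libraries. A row holds a position on mm10 and a gene name, with no signal, no strand and no read depth, so neither a fold change nor a spread between replicates could be computed. What follows are counts of genes and distances, set beside the same measure over all protein-coding genes, with no test between samples. Intervals on shares are 95% Wilson intervals, and together with the limits given for counts of 0 they cover counting error over genes only. The list had 11553 rows at 7144 positions at P28 and 8514 rows at 5193 positions at P28.5. Of the marker genes fixed for the cells of the testis, the P28 list named 2 of 8 for spermatocytes and 2 of 8 for spermatids. It named 0 of 6 for spermatogonia, 1 of 7 for Sertoli cells and 0 of 6 for Leydig cells. At P28.5 these were 3, 0, 0, 0 and 0. Of all protein-coding genes, 16.8% were named at P28 and 11.6% at P28.5. With a listed position within 2000 bp of a RefSeq 5′ end, the marker counts at P28 were 1, 2, 0, 0 and 0. A place in a binding list does not measure expression, so these counts do not check the cell type.

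Cadherins are adhesion proteins of the cell surface whose repeated extracellular domains need calcium to bind a partner on the next cell. The classical cadherins hold adherens junctions through catenins. The desmosomal cadherins (desmocollins and desmogleins) hold desmosomes through plaque proteins, the plakophilins among them. The protocadherins lack the catenin-binding tail. In the clustered protocadherins each gene or variable exon has a promoter of its own, and neurons are known for using a small choice of them per cell. In the testis, N-cadherin (Cdh2) is known at the contacts between Sertoli cells and germ cells.

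Few cadherin genes had a Cl-1 entry at P28, and at P28.5 there was none. By name, 8 of the 109 genes were listed at P28, which is 7.34% (3.77% to 13.8%), beside 16.8% of all protein-coding genes. These were Cdh7, Cdh9, Cdh10, Cdh17, Pcdh18, Pcdha1, Pcdhb3 and Pcdhga6. At P28.5, 0 of 109 were listed, which allows a share of up to 2.75%, beside 11.6% of all genes. Only 4 of the 8, Cdh17, Pcdha1, Pcdhb3 and Pcdhga6, had a listed position within 2000 bp of a RefSeq 5′ end of their own, and Cdh9 had one at a 5′ end in GENCODE M21. That measure, a listed position under any name within 2000 bp of a RefSeq 5′ end, was met by 4 of 109 members (3.67%) at P28 and 0 at P28.5, beside 17.3% and 14.8% of all protein-coding genes. No member that was absent by name had a listed position within 2000 bp of a RefSeq 5′ end.

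Outside the clusters, 5 of 52 genes (9.62%, 4.18% to 20.6%) were listed by name at P28 and 0 at P28.5, which allows up to 5.77%. Of the clustered protocadherins, the P28 list named 3 of 57 (5.26%, 1.81% to 14.4%) and the P28.5 list 0, which allows up to 5.26%. All 8 genes were thus listed at P28 alone. Among all 3661 protein-coding genes in the P28 list, 1814 (49.5%) were listed at P28 alone.

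Of the rows at P28, 42.4% sat on the start of a plus-strand transcript and 12.8% on the far end of a minus-strand transcript. The other 44.8% sat on neither in RefSeq. At P28.5 these shares were 51.2%, 1.43% and 47.3%, so the 2 lists differed in the kind of row they hold. Of the 9 rows under a member's name at P28, 3 were at a minus-strand far end. Minus-strand genes were seldom named: 7.61% of protein-coding genes on that strand were listed at P28, beside 26.0% on the plus strand. These shares count names on rows anywhere, far ends included. Counted instead by distance to RefSeq 5′ ends, up to 2000 bp and under any name, the shares were 9.58% and 25%. Among the members, 7 of 85 plus-strand genes (8.24%) and 1 of 24 minus-strand genes (4.17%) were listed by name. The absence of a minus-strand member such as Cdh2 or Celsr2 from the list therefore says less than that of a plus-strand member such as Cdh1 or Celsr3.

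The positions behind the names fell into separate kinds, which the map of listed positions along each gene shows. Cdh17, the liver-intestine cadherin, was listed at chr4:11758807, the 5′ end of a predicted transcript 650 bp inside the gene. Cdh9, a type II cadherin known from neurons, was listed at chr15:16778101, in a coding exon 49.6 kb from the gene's start. That position is no RefSeq 5′ end of Cdh9, but GENCODE M21 starts a Cdh9 transcript there. Pcdh18, a non-clustered protocadherin on the minus strand, had the 2 rows chr3:49743291 and chr3:49743296. Both are 3′ ends of its transcripts, 14.1 kb from its start. The list gives no strand, and whether such rows stand for the start of a minus-strand transcript was not tested.

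The rows named Cdh10 and Cdh7, both type II cadherins, lay outside these genes. The Cdh10 row, chr15:18697949, was 121 kb upstream of Cdh10 at the 3′ end of C030047K22Rik, a long noncoding RNA gene on the minus strand. The 5′ end of C030047K22Rik is at chr15:18818958, 89 bp past the start of Cdh10 at chr15:18818869, so the genes overlap at their starts and run apart. Whether the Cdh10 row stands for the start of C030047K22Rik was likewise not tested. The Cdh7 row, chr1:110238621, was 93.3 kb beyond the end of Cdh7 and is the 5′ end of Gm41930, a long noncoding RNA gene on the plus strand. No RefSeq 5′ end of Cdh10 or Cdh7 was within 100 kb of its row.

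**Figure D1:**
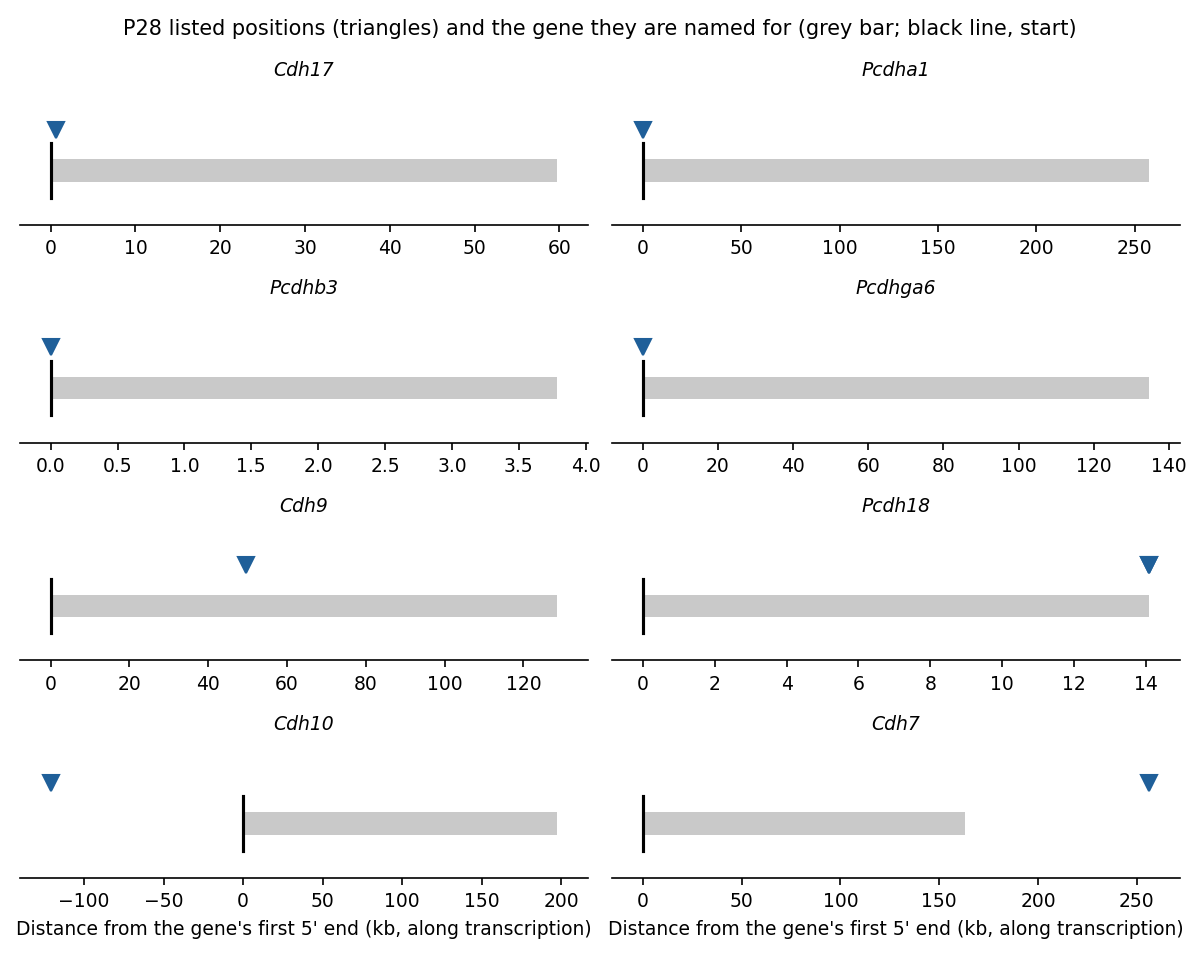
Positions listed at P28 under the name of a cadherin gene (triangles) along that gene (grey bar), with the distance from the gene's first 5′ end in kb in the direction of transcription on each axis. Triangles sit at or within 0.65 kb of the RefSeq start for Cdh17, Pcdha1, Pcdhb3 and Pcdhga6, inside Cdh9, at the end of Pcdh18, 121 kb before Cdh10 and 93.3 kb past the end of Cdh7.

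The DNA at these places differed in CpG content, the ratio of observed to expected CpG pairs within 500 bp. Among the positions in the P28 list the median ratio was 0.723, and among the 9 positions under a member's name it was 0.191. It was 0.0209 at the Cdh7 row, 0.0928 at the Cdh17 row, 0.173 at the Cdh9 row, 0.191 at both Pcdh18 rows and 0.228 at the Cdh10 row. The bases before 2 of these rows and before the starts of 3 genes are shown. They set CpG-poor listed places beside CpG-rich promoters without a listed position. For Pcdh18, on the minus strand and itself listed at P28 by its 3′ ends, that absence says less. The bases are from GRCm38.p6, the assembly behind mm10, read 5′ to 3′ on the stated strand, with CpG pairs in capitals. The promoters of Pcdh10 (chr3:45378148-45378397, plus strand, 22 CpG pairs), Celsr3 (chr9:108825795-108826022, plus strand, 15 pairs) and Pcdh18 (chr3:49757384-49757566, minus strand, 19 pairs) had no listed position within 2000 bp at either age. The 250 bases before the Cdh9 row (chr15:16777851-16778100, plus strand) and those before the Cdh7 row at the start of Gm41930 (chr1:110238371-110238620, plus strand) held 0 CpG pairs.
Pcdh10 promoter: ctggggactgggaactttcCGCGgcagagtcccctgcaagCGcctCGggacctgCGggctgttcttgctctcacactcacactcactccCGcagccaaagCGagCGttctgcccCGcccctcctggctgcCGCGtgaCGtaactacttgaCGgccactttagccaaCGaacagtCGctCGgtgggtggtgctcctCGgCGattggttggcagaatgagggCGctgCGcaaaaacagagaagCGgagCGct
Celsr3 promoter: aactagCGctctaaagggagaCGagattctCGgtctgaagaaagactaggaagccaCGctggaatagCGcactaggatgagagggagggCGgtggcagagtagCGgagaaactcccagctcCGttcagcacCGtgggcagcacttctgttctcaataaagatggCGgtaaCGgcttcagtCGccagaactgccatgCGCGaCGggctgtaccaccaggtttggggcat
Pcdh18 promoter: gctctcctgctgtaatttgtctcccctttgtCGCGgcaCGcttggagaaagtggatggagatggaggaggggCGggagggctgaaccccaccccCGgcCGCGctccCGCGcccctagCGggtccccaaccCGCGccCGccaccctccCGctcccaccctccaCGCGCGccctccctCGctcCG
before the Cdh9 row: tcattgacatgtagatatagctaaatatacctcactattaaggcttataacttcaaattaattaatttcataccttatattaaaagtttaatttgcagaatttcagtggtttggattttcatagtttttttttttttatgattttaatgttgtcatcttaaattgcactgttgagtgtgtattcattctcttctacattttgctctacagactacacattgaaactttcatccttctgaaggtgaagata
before the Cdh7 row, Gm41930: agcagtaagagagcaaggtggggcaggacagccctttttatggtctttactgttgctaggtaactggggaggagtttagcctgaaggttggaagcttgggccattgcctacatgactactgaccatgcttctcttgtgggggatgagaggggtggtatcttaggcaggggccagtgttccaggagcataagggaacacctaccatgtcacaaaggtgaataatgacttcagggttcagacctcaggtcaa

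These places were picked to show the extremes and do not stand for the family, in which listed starts with ratios up to 0.723 and unlisted CpG-poor promoters also occurred. Over all genes, at P28 Cl-1 held 28.8% of genes in the top quintile of promoter CpG content and 6.54% in the bottom quintile, and at P28.5 it held 27.0% and 2.02%. Positions listed at P28 alone had a lower median ratio, 0.453 over 3473 positions, than the 0.800 of the 3671 positions listed at both ages.

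Promoter CpG content had a median ratio of 0.483 over the 109 members and 0.516 over all protein-coding genes, but 8 members (7.34%) were in the highest quintile, which holds 20% of all genes. It was high in the classical type I cadherins (median 0.717) and the seven-pass cadherins (0.796) and low in the desmosomal cadherins (0.139). The 8 members in the highest quintile, Cdh2, Cdh4, Celsr2, Celsr3, Pcdh7, Pcdha8, Pcdhga11 and Pcdhgc3, were unlisted at both ages. In the fourth quintile, 2 of 29 members were listed at P28, Pcdh18 and Pcdha1, beside 24.9% of all genes there.

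Each member was also set beside the genes of its own strand and CpG content. If each member had been listed at the share of all protein-coding genes of its strand and CpG quintile, the members' shares would have summed to 23.3 genes at P28 and 16.2 at P28.5. The counts were 8 and 0. Outside the clusters the sums were 7.6 and 4.7, beside counts of 5 and 0. For the clustered protocadherins, all on the plus strand, they were 15.7 and 11.4, beside 3 and 0. These sums are a description and not a test, and the clustered genes, in 1 locus and alike in sequence, are not independent of each other. Whether reads from near-identical protocadherin exons could be placed was not tested.

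**Figure D2:**
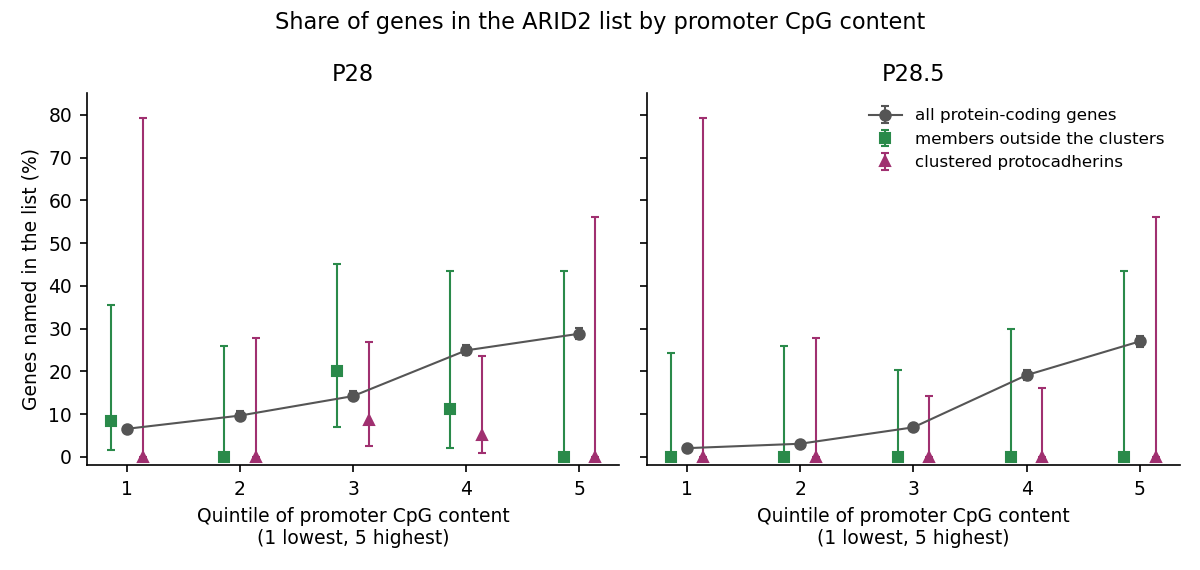
Share of genes named in the ARID2 list (%, with 95% Wilson intervals) by quintile of promoter CpG content at P28 (left) and P28.5 (right), for all protein-coding genes, members outside the clusters and clustered protocadherins. The line for all genes rises to 28.8% and 27.0% in the highest quintile, where both sets of members are at 0. These sets hold 5 genes outside the clusters and 3 clustered genes there. Their intervals reach 43.4% and 56.1%, above the shares of all genes.

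The distance from each gene's 5′ ends to the nearest listed position, under any name, was taken for all members, listed ones included. For some minus-strand members at P28, among them Cdh8, Celsr2 and Pcdh18, that position was their own 3′ end. Outside the clusters the median distance was 246 kb at P28 and 637 kb at P28.5, beside 87.9 kb and 159 kb over all protein-coding genes. No listed position lay within 100 kb of 67.3% of these members at P28 and 82.7% at P28.5, beside 48.3% and 59.5% of all genes. At P28.5 the member nearest to a listed position was Pcdh12, an endothelial protocadherin, 12.2 kb from Rnf14.

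The type I classical cadherins are Cdh1 (E-cadherin), Cdh2 (N-cadherin), Cdh3 (P-cadherin), Cdh4 (R-cadherin) and Cdh15 (M-cadherin), and 0 of 5 were listed at either age. Cdh1 was 16.2 kb from the nearest listed position at P28, under 1110028F18Rik, and 265 kb from it at P28.5, under Smpd3. Cdh2 was 1880 kb from a listed position, under Taf4b, at both ages, with a promoter CpG ratio of 0.869. Cdh3 was 76.3 kb away at P28 and 173 kb at P28.5. Cdh4 was 255 kb from Lsm14b at both ages, and Cdh15 was 237 kb and 194 kb from a listed position. The 5 type I cadherins were thus all without a Cl-1 TSS near their starts, the nearest of them being Cdh1 at P28. For Cdh2, on the minus strand, this says less.

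Of the 13 type II cadherins, Cdh7, Cdh9 and Cdh10 were listed at P28 by the remote rows above, and Cdh5, Cdh6, Cdh8, Cdh11, Cdh12, Cdh18, Cdh19, Cdh20, Cdh22 and Cdh24 were not. None of the 13 had a listed position within 2000 bp of a RefSeq 5′ end, and the Cdh9 row met this with GENCODE 5′ ends. Their median distance to a listed position was 159 kb at P28 and 2923 kb at P28.5, where Cdh24 was the nearest, 44.1 kb from 1700123O20Rik at both ages. Cdh5, the VE-cadherin of endothelium, was 149 kb from Cklf at P28 and 433 kb from Car7 at P28.5. For Cdh8, on the minus strand, the nearest P28 position, chr8:99024471 under Gm15679, is the 3′ end of Cdh8 itself. For Cdh22, also on that strand, it was chr2:165111507 under 1700025C18Rik, beside the 3′ end of Cdh22 at chr2:165111501. Both genes counted as unlisted because these rows carry other names. Cdh6, Cdh9, Cdh10, Cdh12 and Cdh18 share a stretch of 10.4 Mb (chr15:13028699-23477491). At P28 it held 3 listed positions, those named Cdh9, Cdh10 and Hnrnpa1l2-ps2, and at P28.5 it held 0.

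The other cadherins outside these types, Cdh13, Cdh16, Cdh17, Cdh23, Cdh26 and Cdhr1 to Cdhr5, had CpG-poor promoters, with a median ratio of 0.17. Cdh17 was listed at P28, and the remaining 9 were not. Cdh23, which forms the tip links of hair cells, was 193 kb from a listed position at P28 and 27.9 kb from Psap at P28.5. Cdh26 was 19.3 kb from Ppp1r3d at P28 and 1565 kb from Lsm14b at P28.5. Cdh13, anchored to the membrane by a lipid, was 940 kb and 722 kb from one. The median over the 10 was 53.7 kb at P28 and 88.8 kb at P28.5, below the medians of all genes.

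The seven-pass cadherins Celsr1, Celsr2 and Celsr3, which act in planar cell polarity, were unlisted at both ages. Celsr3, on the plus strand, was 17.6 kb from Nckipsd at P28 and 42.3 kb from Ip6k2 at P28.5. Celsr2 was 24.7 kb from Psrc1 and 159 kb from Psma5, and Celsr1 was 222 kb and 258 kb from Ppara. The P28 position under Psrc1, chr3:108390848, is the 3′ end of Celsr2 itself, the kind of row by which Pcdh18 was listed. Celsr2 counted as unlisted because the row carries another name. Their promoter CpG ratios, 0.779 for Celsr1, 0.871 for Celsr2 and 0.796 for Celsr3, were above the median of 0.723 over the positions in the P28 list.

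Of the 12 non-clustered protocadherins, Pcdh18 was listed at P28, by its 3′ ends, and Pcdh1, Pcdh7, Pcdh8, Pcdh9, Pcdh10, Pcdh11x, Pcdh12, Pcdh15, Pcdh17, Pcdh19 and Pcdh20 were not. Their medians were 2033 kb at P28 and 2349 kb at P28.5, the highest of any group at P28. Pcdh10, whose CpG-rich promoter is shown above, was 3636 kb from D3Ertd751e at both ages. Pcdh7, with a CpG ratio of 0.818, was 3718 kb from Stim2, and Pcdh17 was 2971 kb from Tdrd3, again at both ages. The X-linked Pcdh11x and Pcdh19 were 2920 kb and 10477 kb from Astx6 at P28. The X chromosome held 1 listed position at P28 and 2 at P28.5. Without its 2 members, the genes outside the clusters numbered 5 of 50 (10.0%) at P28 and 0 of 50 at P28.5.

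**Figure D3:**
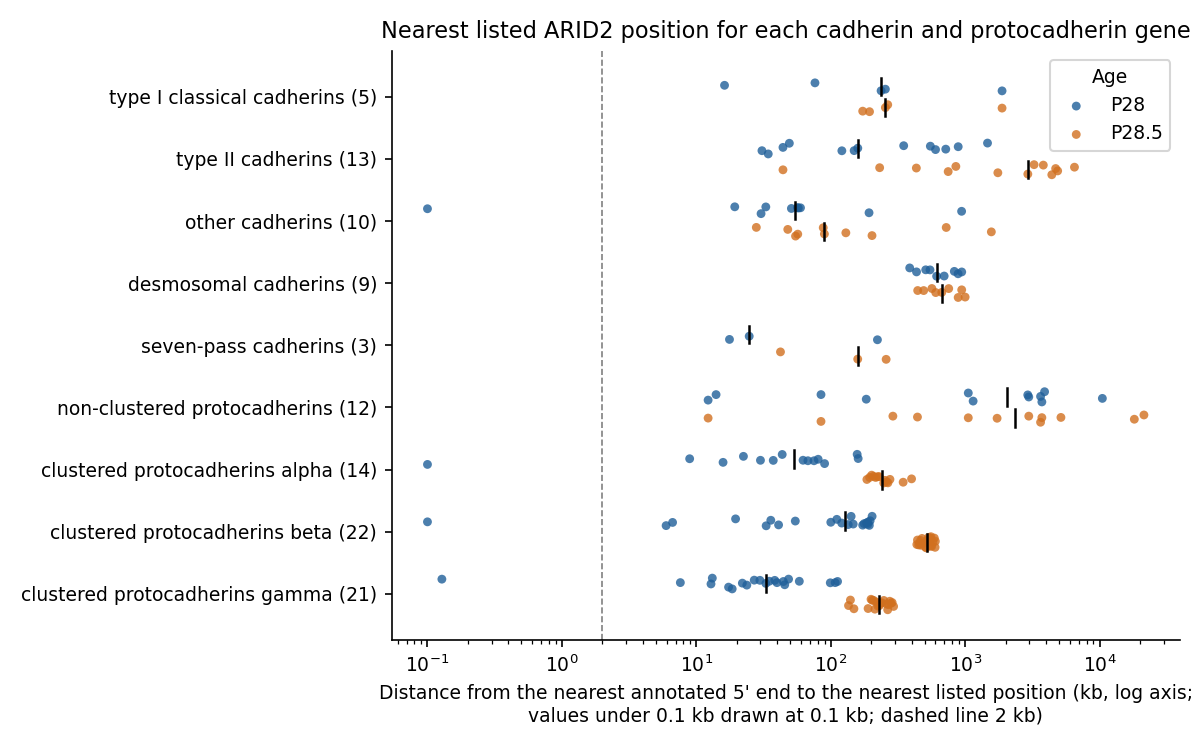
Distance in kb (log axis) from each gene's nearest annotated 5′ end to the nearest listed position at P28 (blue) and P28.5 (orange), by kind of cadherin, with the number of genes in brackets and the median as a black bar. RefSeq 5′ ends were used, and left of the dashed line at 2 kb are Cdh17, Pcdha1, Pcdhb3 and Pcdhga6 at P28 and no gene at P28.5, where the nearest is Pcdh12 at 12.2 kb.

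The desmosomal cadherins Dsc1, Dsc2, Dsc3, Dsg1a, Dsg1b, Dsg1c, Dsg2, Dsg3 and Dsg4 lie next to each other over 644 kb (chr18:19960930-20604526), with no listed position among them at either age. The nearest was 387 kb from Dsg2, under Rnf125, at P28 and 443 kb from it, under Rnf138, at P28.5. Dsg2, the desmoglein of simple epithelia and heart, had a CpG ratio of 0.671, the highest of the 9. Of the others, Dsg1a, Dsg1b, Dsg3, Dsg4 and Dsc1 were between 0.0634 and 0.139, in the lowest quintile. Dsg1c had a ratio of 0.197, Dsc2 of 0.432 and Dsc3 of 0.46.

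The clustered protocadherins span 912 kb (chr18:36930285-37841873). They comprise Pcdha1 to Pcdha12, Pcdhac1 and Pcdhac2 in the alpha cluster, Pcdhb1 to Pcdhb22 in the beta cluster, and Pcdhga1 to Pcdhga12, Pcdhgb1, Pcdhgb2, Pcdhgb4 to Pcdhgb7 and Pcdhgc3 to Pcdhgc5 in the gamma cluster. Their 57 starts follow each other at a median of 7.26 kb and never closer than 4154 bp, so that no listed position could fall within 2000 bp of more than 1 start. At P28 the locus held 3 listed positions, 1 in each cluster. At P28.5 it held 0.

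The 3 positions were at starts. Pcdha1, the first gene of the alpha cluster, was listed at its 5′ end (chr18:36930285), with a CpG ratio of 0.723. Pcdhb3 was listed at its 5′ end (chr18:37300799), with a ratio of 0.412. Pcdhga6 was listed 128 bp inside its start (chr18:37707229), in a coding exon, with a ratio of 0.570, and neither a RefSeq transcript end nor a GENCODE 5′ end was there. The other 54 tandem promoters had no listed position, among them 11 alpha and 8 gamma starts with CpG ratios in the fourth quintile and Pcdha8, Pcdhga11 and Pcdhgc3 in the highest.

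Median CpG ratios were 0.706 for the alpha, 0.390 for the beta and 0.613 for the gamma starts. With 1 listed gene in each cluster, the shares at P28 were 7.14% of alpha, 4.55% of beta and 4.76% of gamma genes. The median distance to a listed position at P28 was 52.9 kb for alpha, 128 kb for beta and 32.9 kb for gamma genes. Over the 57 it was 44.4 kb, beside 87.9 kb over all protein-coding genes, and 31.6% had no listed position within 100 kb, beside 48.3%. For many of them the nearest position was the listed one in their own cluster. At P28.5 the medians of the 3 clusters were 238 kb, 520 kb and 229 kb, and all 57 genes had none within 100 kb, beside 59.5% of all protein-coding genes.

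The regions on either side held more than the locus. In the 500 kb before the alpha cluster, 5 of 18 protein-coding genes were listed at P28 (Ankhd1, Ik, Ndufa2, Tmco6 and Zmat2) and 2 at P28.5 (Ankhd1 and Ik). In the 500 kb after the gamma cluster, which also hold Pcdh1 and Pcdh12, Hdac3, Rell2 and Rnf14 were listed at both ages, 3 of 10. All listed positions there other than those of Hdac3 and Rell2 were under Rnf14. Over all protein-coding genes the shares were 16.8% at P28 and 11.6% at P28.5, and whether the flanks differ from them was not tested. Inside the locus, Taf7 and Slc25a2, protein-coding genes between the beta and gamma clusters chosen after their values were seen, were unlisted at both ages.

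**Figure D4:**
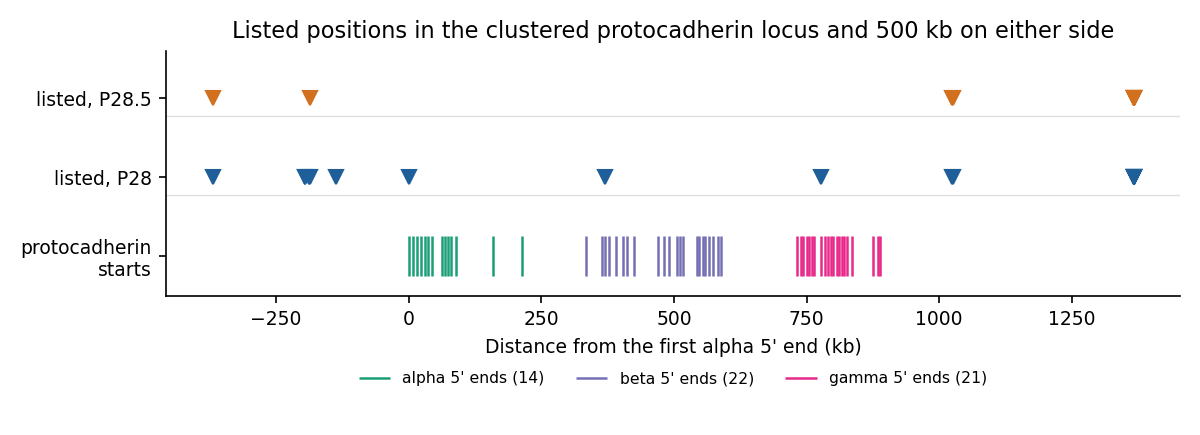
Listed positions at P28 (blue triangles) and P28.5 (orange triangles) over the clustered protocadherin locus and 500 kb on either side, with the 57 protocadherin starts as lines, against the distance in kb from the first alpha 5′ end. Within the locus there are 3 triangles at P28, at 0, 371 and 777 kb, and none at P28.5, while the flanks hold triangles at both ages.

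Genes that work with cadherins were followed in 7 lists. Over the lists written from gene function, 13 of 52 genes (25%) were listed at P28 and 11 of 52 (21.2%) at P28.5, beside 16.8% and 11.6% of all protein-coding genes. Among the catenins and adherens junction plaque genes 3 of 9 were listed at P28, the alpha-catenin genes Ctnna1 and Ctnna3 and Vcl (vinculin), and Ctnna3 and Vcl again at P28.5. Ctnnb1 (beta-catenin), with a CpG ratio of 1.00, was 344218 bp from a listed position at both ages. In the desmosome plaque list of 8, Pkp2 and Pkp4 (plakophilins) were listed at P28 and Pkp4 at P28.5. Nectin2 was the listed gene among 4 nectins, adhesion molecules beside the cadherins, at both ages.

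Of these lists, genes for cadherin processing and turnover had the highest share at P28, 4 of 5. Adam10, the protease that sheds cadherin ectodomains, and Cbll1, the ligase Hakai, were among those listed at both ages. Furin, which cleaves cadherin precursors, was listed at P28 by a row 64165 bp from its start. Of 7 transcription factors known at cadherin promoters, Snai1 (Snail) was listed at both ages, and Snai2, Snai3, Zeb1, Zeb2, Twist1 and Twist2 at neither. Of 9 architectural factors known at the protocadherin clusters, the cohesin genes Smc3 and Stag1 were listed at both ages and the cohesin release factor Wapl at P28.5, while Ctcf was unlisted. The other large members of the superfamily, Fat1 to Fat4, Dchs1, Dchs2, Clstn1 to Clstn3 and Ret, were unlisted at both ages, 0 of 10. With 4 to 10 genes a list, these counts are descriptions, and they were not set beside genes of like strand and CpG content.

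**Figure D5:**
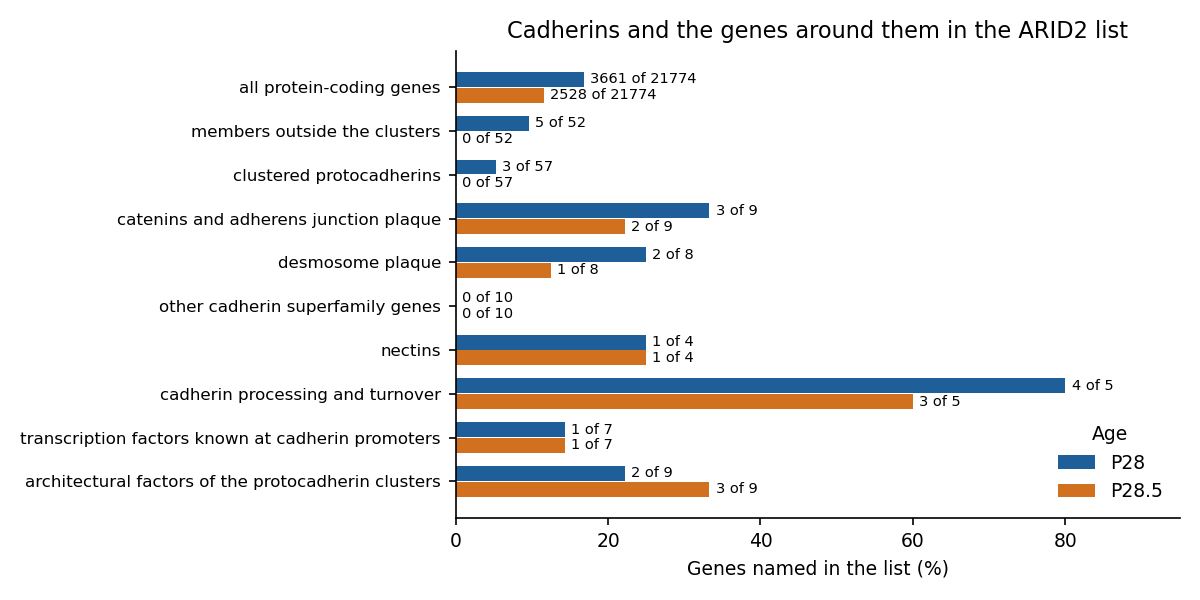
Share of genes named in the ARID2 list (%) at P28 (blue) and P28.5 (orange) for all protein-coding genes, the cadherin genes outside and inside the protocadherin clusters, and 7 lists of related genes, with the count beside each bar. The cadherin bars (9.62% and 5.26% at P28, 0 at P28.5) are below those of all genes (16.8% and 11.6%). The other superfamily genes are at 0 of 10, too few genes to set them apart from all genes.

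Short motifs were counted on both strands in the RefSeq promoter windows, from 250 bases before to 50 after a start, and a gene was counted when any of its windows held the letters. An entry was found for 29 of 52 members outside the clusters (32 windows) and for 17492 protein-coding genes (21263 windows). CCAAT was found in 17 members (58.6%), beside 42.3% of all genes. CAGGTG, the E-box that Snail and ZEB proteins bind, was in 7 (24.1%), beside 22.1%, and Cdh7 held it in each of its 3 windows. The GC box GGGCGG was in 10 (34.5%), beside 49.2%, and TATAAA in 2 (6.90%), beside 14.8%. The CTCF core GGNGGCAG, which can overlap the GC box, was in 6 (20.7%), beside 15.2%. TGACGTCA was in 0 members, beside 2.54%, and the NRF1 core CGCATGCG in 0, beside 2.77%. A match to letters is no bound site, and these counts were not tested.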

How the data were processed

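CUT&RUN for ARID2 and BRG1, with a control without primary antibody, was done on spermatogenic cells of synchronized testes at 2 ages. The authors trimmed reads with TrimGalore, aligned them to mm10 with Bowtie2 and SAMtools, made coverage with deepTools without blocklisted regions or duplicates, scaled it with csaw, divided it by the control on the log2 scale, averaged replicates with WiggleTools and clustered RefSeq TSSs by k-means on ARID2. The deposited values are genomic positions with a gene name, not counts, signal or scores. The read depth is unknown from them, and the BRG1 and control libraries were not analysed here.

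A gene was listed when a row carried its symbol, as written or through a synonym of 1 gene; 99.8% of the names at each age matched. Transcript ends came from RefSeq for GRCm38.p6 (121769 transcripts of 49595 genes), and GENCODE M21 was an added alternative. CpG content was the observed to expected ratio in the 500 bp before and after a gene's 5′ end, in 5 quintiles over protein-coding genes. A count of 0 of n allows 3 of n. The counting was tested on simulated lists. The tools were numpy 2.4.6 and scipy 1.17.1 under Python 3.11.15, with plots by matplotlib 3.10.9. Promoter windows and motif backgrounds came from RefSeq.

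The members, gene lists and alternatives were chosen with earlier results of these data known. Named were all members, the genes of a row nearest to a member, and the listed genes of the related lists, of which 1 is not reported here by name; other names were chosen after their values were seen.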

Additional observations from a re-analysis of the deposited data

How the results depend on the processing

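Every alternative run left 0 members listed at P28.5 and at both ages. At P28 the count of 8 members became 4 when a listed position within 500, 2000 or 5000 bp of a 5′ end was required, whatever the name, or the name together with 2000 bp. It became 3 when the position had to equal a 5′ end within 1 bp, and 5 with GENCODE 5′ ends added, an alternative chosen after seeing the data that brought in Cdh9. Outside the clusters the count of 5 became 1 under each of these except GENCODE, where it was 2. By construction, these settings leave out the rows of Cdh7, Cdh10 and Pcdh18 that lie far from a start. The 3 clustered protocadherins stayed within 2 and 3. Symbols as written gave 8, and plus-strand genes alone gave 7. The share of all genes was 16.8% at P28 and became 8.23% over all annotated genes and 26.0% over plus-strand protein-coding genes, and at P28.5 it was 11.6% and became 5.45% and 20.4%. Without olfactory and vomeronasal receptors it was 17.8% and 12.4%. No paired analysis was possible because each list came from averaged libraries and no result has a test, and for the same reason no library could be left out. Depth and signal strength cannot be read from the lists, so an unlisted gene is not shown to lack ARID2. The paper gives read depths per library and far fewer called ARID2 peaks at P28.5 than at P28. How this bears on the difference between the ages was not tested.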
